A study of Homo sapiens with 4 samples.

Results

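The kynurenine pathway, which breaks down most of the tryptophan that is not built into protein, was followed on microarrays of DAOY cells carrying hairpins against ZFX. It is represented here by 8 genes, KYNU, AADAT, AFMID, IDO1, TDO2, KMO, HAAO and QPRT, taken by name out of 18417 genes whose probe set (the group of probes read as 1 transcript) carries a single gene symbol. The genes were selected on their place in the pathway with their hairpin-against-control values on these same arrays already known, a low KYNU among them, so their differences from the control are a description and were given no test. DAOY is an established human medulloblastoma line, often used as a model of the Sonic hedgehog subgroup of this cerebellar tumour.

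The arrays compared cells in which ZFX was targeted, by the hairpin H2, H3 or H4, with cells given a scrambled hairpin (SCR) that has no target. ZFX, a transcription factor with zinc fingers, is encoded on the X chromosome. All 4 cultures were exposed to lentivirus for 16 to 24 hours, rested for 48 hours and lysed after about 48 hours in puromycin (2 ug/mL), so the control also carries a lentivirus, a hairpin and drug selection. Each hairpin was read on 1 array, from 250 ng of total RNA, and the labels do not say whether the transductions were repeated. The labels describe drug-selected cells and name no clone. The 3 comparisons share the single scrambled array, so something particular to that array and an effect of the anti-ZFX hairpins cannot be told apart.

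As background, the pathway opens when a dioxygenase, TDO2 or IDO1, cuts the indole ring of tryptophan, and AFMID releases kynurenine from the product. Kynurenine is then transaminated to kynurenic acid by AADAT and related enzymes, hydroxylated by KMO, or cleaved by KYNU. On the hydroxylated branch KYNU makes 3-hydroxyanthranilate, which HAAO oxidises and QPRT carries into NAD. TDO2 is known chiefly from liver, IDO1 and KYNU from cells responding to interferon gamma and other inflammatory signals, and kynurenine itself from brain tumours as a ligand of the receptor AHR.

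The promoter windows of KYNU and TDO2 are shown because these were the members above the intensity filter (mean log2 intensity of 6.78 or more) that lay below the scrambled array with all 3 hairpins. Each window runs from 250 bases before to 50 bases after the transcription start in RefSeq (GRCh38.p14), KYNU at chr2:142877414-142877713 and TDO2 at chr4:155903446-155903745, both on the plus strand. Capitals mark matches to the 5 motifs searched. These were the ZFX core AGGCCT, the interferon gamma element TTCNNNGAA (GAS), the interferon-stimulated response element (GAAA, any 2 bases, GAAA), the AHR core GCGTG and the AP-1 element TGANTCA, on both strands.
KYNU: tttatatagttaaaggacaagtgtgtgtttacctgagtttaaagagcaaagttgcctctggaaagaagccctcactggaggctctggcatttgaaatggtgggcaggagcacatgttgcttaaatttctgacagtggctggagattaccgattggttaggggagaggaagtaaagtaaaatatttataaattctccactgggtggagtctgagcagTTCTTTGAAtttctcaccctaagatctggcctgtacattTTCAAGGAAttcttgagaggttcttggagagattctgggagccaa
TDO2: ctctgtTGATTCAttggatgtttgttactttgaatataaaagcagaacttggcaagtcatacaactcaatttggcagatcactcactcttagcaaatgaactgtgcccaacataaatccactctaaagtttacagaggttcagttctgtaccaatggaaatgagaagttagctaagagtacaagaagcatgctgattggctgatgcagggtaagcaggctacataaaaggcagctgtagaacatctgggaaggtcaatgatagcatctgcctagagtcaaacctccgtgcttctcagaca

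The KYNU window held 2 matches to TTCNNNGAA, beginning at -34 and at 6 relative to the start, and no other motif searched. They do not overlap each other. The TDO2 window held 1 match to TGANTCA, beginning at -244. Windows of 7 of the 8 genes were matched in the promoter table, 10 windows in all, and the IDO1 window was not. TTCNNNGAA was found in 7.7% of the 35116 promoter windows of this length in the RefSeq table and, among the members, in that of KYNU only. TGANTCA was also found in 7.7%, among the members in that of TDO2 only. AGGCCT was in 10.9% of all windows and among the members only in QPRT, GCGTG was in 36.5% and in AADAT and AFMID, and the interferon-stimulated response element was in 3.6% and in no member window. Both printed windows were poor in CpG, with 1 CpG each and an observed-to-expected CpG ratio of 0.08, against a median of 0.58 over all windows. A match describes the letters of a window and says nothing of a factor bound there.

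ZFX read 1430 in the scrambled control, 744.9 for H2, 749.6 for H3 and 995.6 for H4, in deposited intensity units. All 3 knockdown arrays lay below the control, H4 the least, at 52.1%, 52.4% and 69.6% of its level. On the 4 arrays together, any pair of arrays correlated at 0.992 to 0.996 across all probe sets. In limma's moderated test of the 3 hairpins against the scrambled array, 0 of the 13813 genes above the intensity filter (0%) passed a Benjamini-Hochberg adjusted p of 0.05. The same fit without moderation also called 0 genes. The filter is the 25th percentile of the mean log2 intensity of all genes. By size alone, 43 genes (0.311%) were at least 1.5-fold lower and 7 (0.0507%) at least 1.5-fold higher with every hairpin. Among the markers of the labelled tumour type, 7 of 10 with a probe set passed the filter. These were SOX2, ZIC1, ZIC2, OTX2, PTCH1, GLI2 and ATOH1, while NES, GLI1 and MAP2 lay below it. ATOH1 only just passed, at a mean log2 intensity of 6.82, and NES only just fell short, at 6.78. Neither reached 6.86, the 95th percentile of olfactory receptor genes, which are silent in most cells.

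Of the 8 pathway genes, 6 passed the filter and IDO1 and KMO did not. KYNU alone was at least 1.5-fold lower with every hairpin, and no member was at least 1.5-fold higher. Lower by any amount with all 3 hairpins were KYNU and TDO2, 2 of the 6, where 30.6% of all genes above the filter were lower and 16.9% higher with all 3. Centring each array on its median changed those shares to 23.3% and 23.6%. AADAT, AFMID, HAAO and QPRT had hairpins on both sides of the control. The mean differences of the 6 had a median of -0.079 on the log2 scale, beside -0.035 for all genes above the filter. These 6 are the members that passed the filter and do not stand for the whole pathway.

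**Figure D1:**
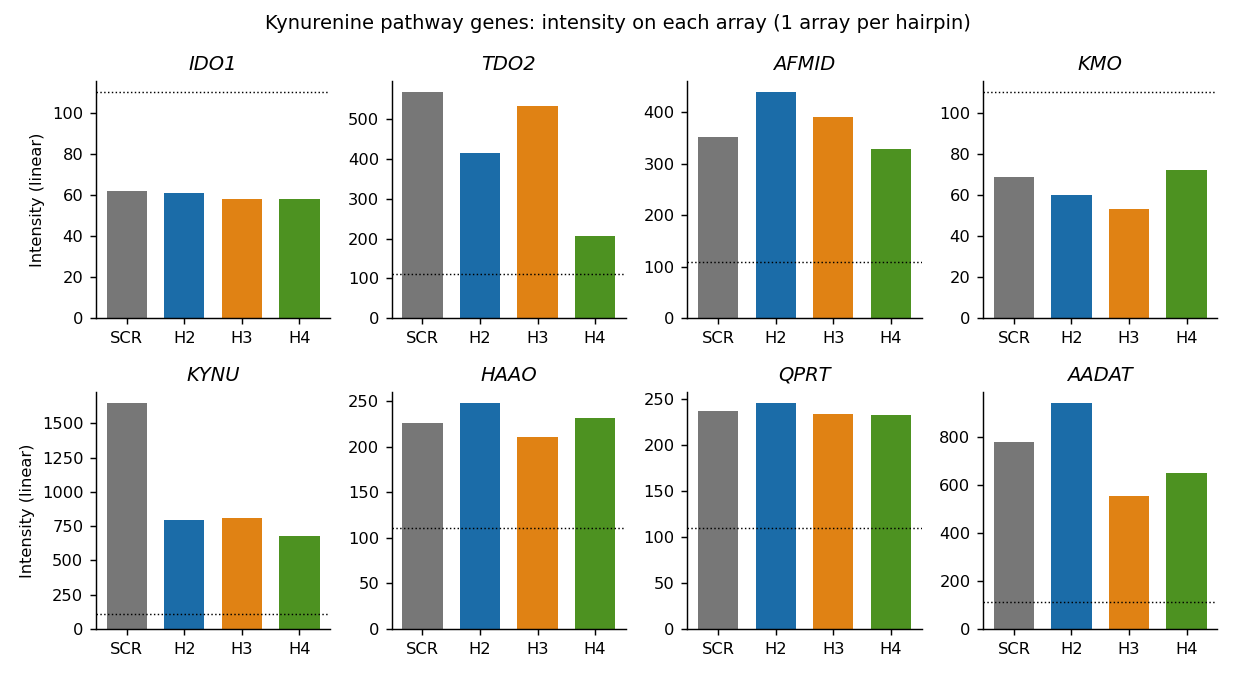
Deposited intensity (linear scale, from 0) of the 8 kynurenine pathway genes on the scrambled (SCR), H2, H3 and H4 arrays, 1 array per bar, with the intensity filter (110.2) as a dotted line. KYNU stands at 1648 on the scrambled array and between 676.9 and 807.9 with the hairpins, TDO2 is lowest with H4 at 206.9, and IDO1 and KMO stay below the line; bar heights do not order one gene against another.

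At the entrance of the pathway, the dioxygenase TDO2 read 568.0 in the scrambled control, 414.5 for H2, 534.7 for H3 and 206.9 for H4. The H4 array was far below the others, and H3 was close to the control. These were 73.0%, 94.1% and 36.4% of the scrambled level, or log2 differences of -0.45, -0.087 and -1.46. The H4 difference was the 6th lowest of all 13813 genes on that array, where 2.17% of genes were at least 1.5-fold lower, while with H2 and H3 TDO2 ranked 1273 and 4683. Its mean log2 difference was -0.67 ± 0.71 (SD, n = 3 hairpins), a spread larger than the mean, and -0.27 without H4.

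IDO1, the inducible dioxygenase that opens the same step, read 62.3 in the control and 61.3, 58.2 and 58.2 for H2, H3 and H4. The 4 values lie within a few units of each other. They also lie near the level of genes that are silent in most cells, since the probe sets of 341 olfactory receptor genes had a median intensity of 55.0 and a 95th percentile of 116.4. No detection call was used here, and probe sets differ in brightness at the same RNA level, so only the nearness to this level can be stated. The log2 differences of IDO1 were -0.022, -0.099 and -0.097, and that for H2 turned to 0.004 when arrays were centred on their medians. IDO2, its paralogue, was dim too, at 42.5 on the scrambled array and 41.7 to 47.4 with the hairpins.

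AFMID, the formamidase that frees kynurenine, read 352.8 in the scrambled control, 439.2 for H2, 390.9 for H3 and 328.6 for H4. H2 and H3 were above the control and H4 below it. The mean log2 difference was 0.12 ± 0.21 (SD, n = 3), smaller than the spread between hairpins, and 0.023 without H2.

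KYNU, kynureninase, cleaves kynurenine and 3-hydroxykynurenine and needs vitamin B6 as its cofactor. It read 1648 in the scrambled control, 797.7 for H2, 807.9 for H3 and 676.9 for H4. The 3 hairpin arrays lay close together and well below the control, at 48.4%, 49.0% and 41.1% of its level. The log2 differences were -1.05, -1.03 and -1.28, with a mean of -1.12 ± 0.14 (SD, n = 3), or 2.17-fold lower. That SD covers the hairpins only, because the control is a single array. In bulk RNA, fewer cells expressing KYNU and less KYNU RNA per cell cannot be told apart.

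By the smallest of its 3 distances below the control, 1.03 on the log2 scale, KYNU ranked 3rd of 13813 genes, after IL1B and C3. By its mean difference it ranked 12th. Its place on single arrays was lower, 160th with H2, 15th with H3 and 13th with H4, so the rank of 3rd rests on how alike the hairpins were. The 3 KYNU differences spanned 0.255, against a median span of 0.386 over the 43 genes at least 1.5-fold lower with every hairpin (0.056 to 1.88), of which 12 had a narrower span. KYNU was lowest with H4, the hairpin that left the most ZFX, and H2 and H3, which left nearly equal ZFX, had nearly equal KYNU. With 1 array a hairpin, a relation between the ZFX and KYNU levels was not tested.

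**Figure D2:**
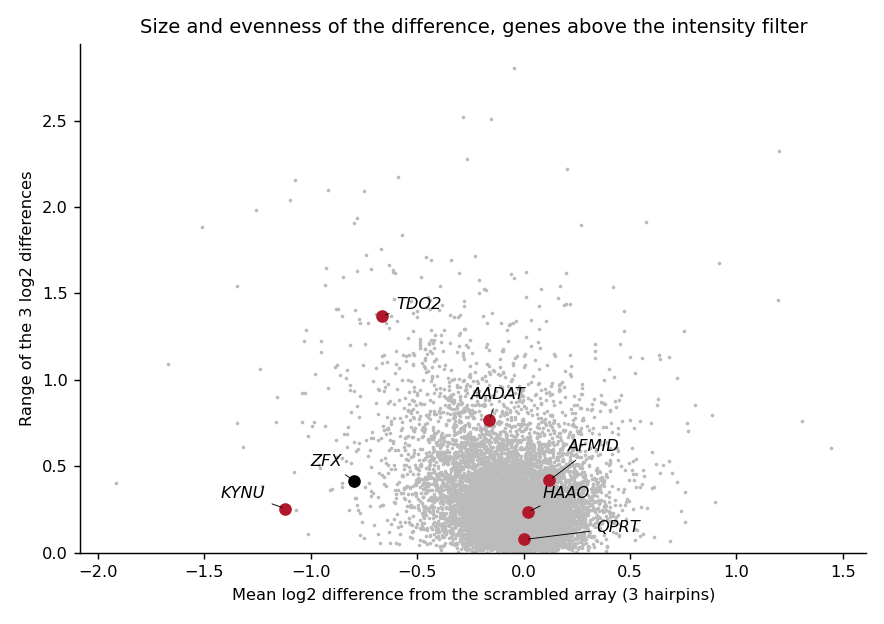
Each grey point is 1 of 13813 genes, placed by its mean log2 difference from the scrambled array over 3 hairpins (x axis) and by the range of those 3 differences (y axis), with the 6 pathway genes above the filter in red and ZFX in black. KYNU lies far to the left with a small range (0.255), TDO2 has a large range (1.37), and the other 4 red points lie within the cloud.

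The genes whose 3 differences lay nearest to those of KYNU, by Euclidean distance over the 3 hairpins, were IL1A (0.184), SRGN (0.261), DIS3L (0.329), CTSS (0.355) and CPA4 (0.378). IL1A encodes the cytokine interleukin 1 alpha. It read 2393 in the control and 1270, 1243 and 918.9 for H2, H3 and H4, so it shared with KYNU the lowest value on H4. SRGN, the proteoglycan serglycin, read 322.5 against 155.0, 166.8 and 157.4. All these distances are measured from the same scrambled array, and they describe likeness on 4 arrays only.

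KYNU and IDO1 are known from macrophages and TDO2 from hepatocytes, so markers of those cells were read on the same arrays. Of 12 myeloid markers 5 passed the filter (CD14, CD68, CSF1R, TYROBP and LAPTM5), and PTPRC, the pan-leukocyte antigen, read 43.0 on the scrambled array and 41.9 to 42.4 with the hairpins. The summed intensity of the 12 was 4676 in the control and 3316, 5082 and 4322 for H2, H3 and H4, so the control lay inside the range of the hairpins. CD68 made up most of that sum, at 2570 in the control and 1853, 3253 and 2273 in the same order. CSF1R, the receptor of a macrophage growth factor, was lower with every hairpin, at 198.1 in the control and 144.6, 148.4 and 178.3. LYZ, lysozyme, was at least 1.5-fold lower with every hairpin, as KYNU was, at 109.8 in the control and 57.5, 72.5 and 66.4, with a mean intensity below the filter. Of 6 hepatocyte markers 2 passed, APOA1 and SERPINA1, and ALB, albumin, read 51.0 on the scrambled array and 47.3 to 51.8 with the hairpins. That list summed to 1216 in the control and 755, 964 and 823 for H2, H3 and H4, and SERPINA1 alone read 767.0 against 276.3, 523.8 and 358.9 in the same order. Of 4 endothelial markers only TEK passed, and the list summed to 1076 in the control and 613, 884 and 904 for H2, H3 and H4. LYZ was the 1 marker of these 3 lists at least 1.5-fold lower with every hairpin, and the part of these markers in the KYNU and TDO2 values was not tested.

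KMO, the monooxygenase that feeds the hydroxylated branch, read 69.1 in the scrambled control, 60.0 for H2, 53.1 for H3 and 72.4 for H4. Like IDO1 it stayed below the filter on every array and close to the olfactory receptor level, and the hairpins fell on both sides of the control. Its log2 differences of -0.20, -0.38 and 0.068 were not read further at this intensity.

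HAAO, which opens the ring of 3-hydroxyanthranilate, read 226.4 in the scrambled control, 247.9 for H2, 210.6 for H3 and 231.5 for H4. The control lay inside the range of the hairpins, with a mean log2 difference of 0.019 ± 0.12 (SD, n = 3). QPRT, which turns quinolinate into the first nucleotide on the way to NAD, read 236.9 in the scrambled control, 246.0 for H2, 233.8 for H3 and 233.3 for H4. The 4 QPRT values were nearly level, with log2 differences of 0.054, -0.019 and -0.022. Their mean, 0.004 ± 0.043, was smaller than the spread, and the H3 and H4 differences turned to zero or above under each of the 3 other scalings tried.

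AADAT, the aminotransferase of the kynurenic acid branch, read 779.3 in the scrambled control, 941.7 for H2, 553.8 for H3 and 648.4 for H4. H2 was above the control and H3 and H4 were below it. The log2 differences of 0.27, -0.49 and -0.27 gave a mean of -0.16 ± 0.39 (SD, n = 3), and leaving out H3 brought it to 0.004. H2 gave the highest of the 3 hairpin values for AADAT, AFMID, HAAO and QPRT alike, and the median of the 6 members above the filter was 0.092 for H2, -0.096 for H3 and -0.18 for H4.

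On single arrays, 1 of the 6 members was at least 1.5-fold lower with H2 (KYNU, against 5.61% of all genes), 1 with H3 (KYNU, against 1.14%) and 2 with H4 (KYNU and TDO2, against 2.17%). None was at least 1.5-fold higher, where 0.992%, 0.528% and 0.608% of genes were. With 1 array on each side these counts have no replicate check.

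**Figure D3:**
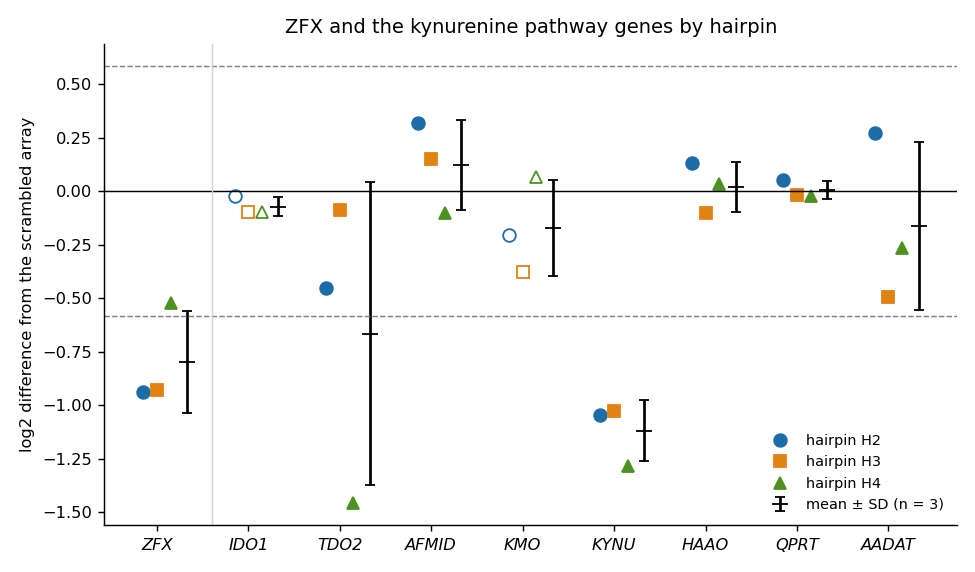
Log2 difference of each hairpin array from the scrambled array for ZFX and the 8 pathway genes in pathway order, with the mean ± SD over 3 hairpins in black, dashed lines at 1.5-fold, and open symbols for genes below the intensity filter. The 3 KYNU points all lie below the lower dashed line, TDO2 crosses it with H4 only, and the other 6 genes lie between the lines.

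The pathway has further enzymes beside the 8 members. Of 6 listed, KYAT1, KYAT3 and GOT2 passed the filter, all aminotransferases that can make kynurenic acid, and IDO2, ACMSD and ALDH8A1 did not. All 3 were lower with every hairpin, where 30.6% of genes were, and 0 were 1.5-fold lower. KYAT3 read 2658 in the control and 2430, 2232 and 2158 for H2, H3 and H4, or a log2 difference averaging -0.23 ± 0.088 (SD, n = 3). KYAT1 was at 88.1% and GOT2 at 92.1% of the scrambled level. When arrays were centred, 2 of the 3 remained lower with every hairpin, where 23.3% of all genes were. The median of the 3 was -0.18, beside -0.035 for all genes.

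Downstream of ACMSD the carbons pass through the glutarate branch, whose 5 listed genes all passed the filter. DHTKD1, a subunit of the dehydrogenase acting on 2-oxoadipate, had the largest mean difference of the 5. It read 707.7 in the scrambled control, 483.5 for H2, 533.3 for H3 and 532.9 for H4. The 3 hairpin arrays were alike and below the control, at a mean log2 difference of -0.46 ± 0.081 (SD, n = 3) or 72.9%. HADH was at 84.7% and GCDH at 88.3%, which made 3 of the 5 lower with every hairpin (30.6% of all genes were), while ECHS1 and ACAT1 had values on both sides. The median of the 5 was also -0.18.

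Of the tryptophan and kynurenine transporters, 5 of 6 passed the filter and 2 were lower with every hairpin, SLC7A5 and SLC16A10, a share near the 30.6% of all genes. SLC7A5, the large neutral amino acid transporter, read 1400 in the scrambled control, 1261 for H2, 1087 for H3 and 825.8 for H4. H4 was again the lowest, with log2 differences of -0.15, -0.36 and -0.76 for a mean of -0.43 ± 0.31 (SD, n = 3). SLC16A10, an aromatic amino acid transporter, was at 89.6%. SLC3A2, the heavy chain that partners SLC7A5, stood at 2985 in the control and 3024, 3031 and 2730 for H2, H3 and H4, and SLC7A8 lay on both sides of the control with a mean of -0.091 ± 0.27, which is also the median of the list.

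Among other routes for tryptophan, 8 of 11 listed genes had a probe set with 1 symbol and 4 passed the filter, of which 3 were lower with every hairpin (30.6% of all genes were). MAOA, a monoamine oxidase that breaks down serotonin, was at 76.0% of the control (average log2 difference -0.40 ± 0.096, SD, n = 3). WARS1, the cytosolic tryptophanyl-tRNA synthetase, which is also known to be induced by interferon gamma, read 4932 in the control and 4151, 4272 and 4479 for H2, H3 and H4. It was at 87.2% and its mitochondrial counterpart WARS2 at 90.3%. TPH1, which starts serotonin synthesis, lay on both sides of the control, and the median of the 4 was -0.17.

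In NAD synthesis and salvage, 11 of 12 listed genes passed the filter, 6 were lower and 1 was higher with every hairpin, where 30.6% and 16.9% of all genes were. Centring gave 5 and 2, beside 23.3% and 23.6% of all genes. The median of the 11 was -0.099. NNMT, which methylates nicotinamide and removes it from salvage, read 1617 in the scrambled control, 1125 for H2, 1255 for H3 and 1401 for H4. It was lowest with H2 and had a mean log2 difference of -0.36 ± 0.16 (SD, n = 3). NADSYN1, the last enzyme of the route that QPRT feeds, read 638.3 in the control and 534.6, 527.9 and 527.7 for H2, H3 and H4, nearly the same on each hairpin (83.0%). NMRK2, a nicotinamide riboside kinase, was at 88.3%. NAMPT, the rate-limiting enzyme of nicotinamide salvage, was the 1 gene higher with every hairpin, at 6984 in the control and 7713, 7569 and 7862 for H2, H3 and H4 (110.5%).

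Kynurenine and kynurenic acid act through the receptors AHR and GPR35. All 8 genes of that list with a probe set of 1 symbol passed the filter, and 0 of them lay on 1 side of the control with every hairpin, where 30.6% of all genes were lower and 16.9% higher. AHR read 4025 in the scrambled control, 3984 for H2, 3871 for H3 and 4762 for H4, and only H4 was clearly apart, above the rest. CYP1B1, a target of AHR, read 2833 in the scrambled control, 1676 for H2, 3034 for H3 and 2902 for H4, lower with H2 only. CYP1A1, the classical AHR target, differed by 0.40, -0.19 and 0.091 on the log2 scale at a low intensity (115.6 on the scrambled array), and ARNT, the partner of AHR, had a mean of -0.13 ± 0.15. The list had a median of 0.019.

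Interferon gamma is the best known inducer of IDO1 and also raises KYNU, and 8 of the 10 genes listed for its signalling passed the filter. IRF8 was below the filter. With every hairpin 7 of the 8 were lower and 0 higher, where 30.6% and 16.9% of all genes were. Under each of the 3 other scalings 6 of the 8 were lower, where 23.3% to 26.5% of all genes were. None was 1.5-fold lower with every hairpin. The list median was -0.27, beside -0.035 for all genes.

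IRF1, a transcription factor that activates IDO1, read 1197 in the scrambled control, 752.1 for H2, 860.2 for H3 and 985.3 for H4. The hairpins lay below the control in the order H2, H3, H4, with a mean log2 difference of -0.48 ± 0.20 (SD, n = 3) or 71.9%. SOCS1, a feedback inhibitor of the pathway, kept the same order at 163.4, 182.0 and 193.8 against 244.5 (73.3%). IRF2, which competes with IRF1, was at 74.6% and was lowest with H4. The medians of the list were -0.40 for H2, -0.22 for H3 and -0.14 for H4, lowest with H2 and nearest the control with H4. KYNU was lowest with H4. A relation between the list and KYNU was not tested. JAK1 rested on H2, with log2 differences of -0.78, -0.21 and 0.001.

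**Figure D4:**
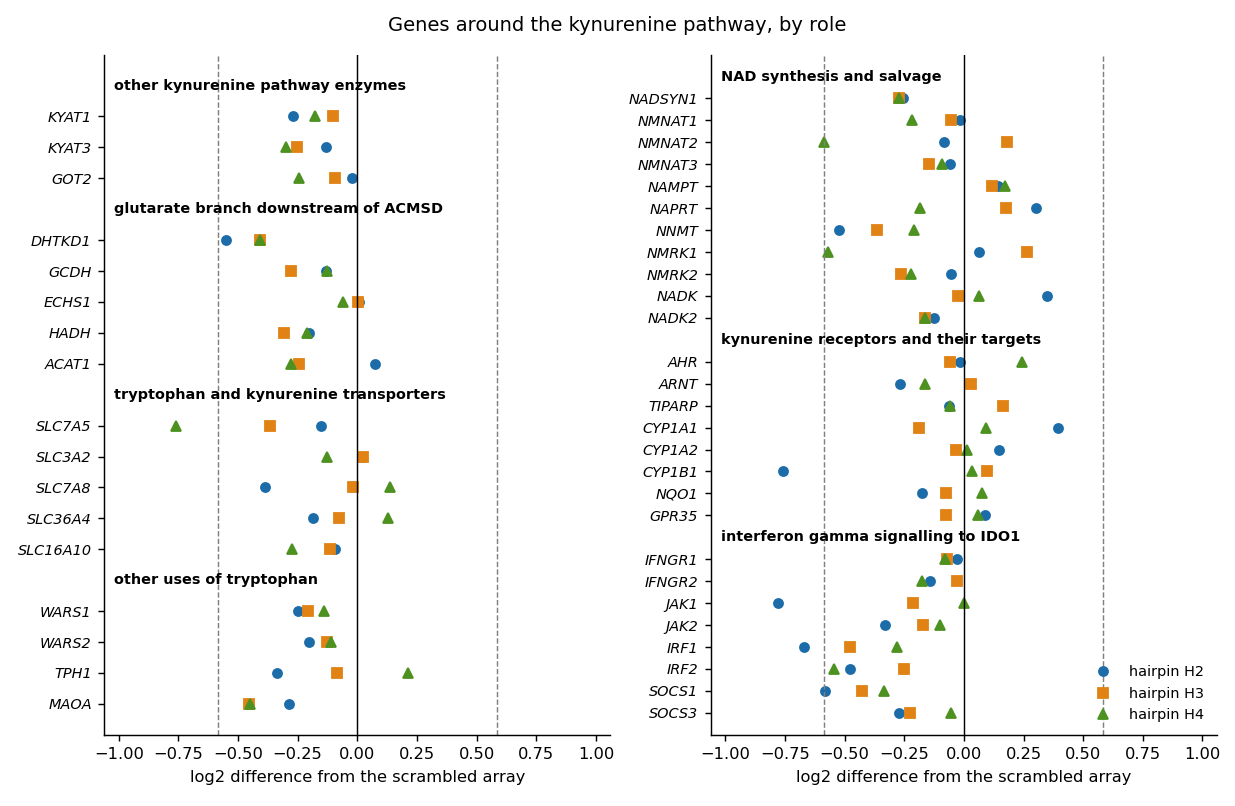
Log2 difference from the scrambled array (x axis) for the 44 genes above the intensity filter in 7 lists around the kynurenine pathway, 1 symbol per hairpin, with dashed lines at 1.5-fold. Most points lie between the dashed lines, no gene has all 3 hairpins beyond one, 24 genes have every hairpin below the control and 1 (NAMPT) has every hairpin above it.

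Over all these lists, 63 genes were written down, 54 had a probe set with 1 symbol and 44 passed the filter. Of the 44, 24 were lower and 1 was higher with every hairpin, and by 1.5-fold or more 0 were. Of all genes above the filter, 30.6% were lower and 16.9% higher with every hairpin. When arrays were centred on their medians the lists had 21 lower and 2 higher, and those shares were 23.3% and 23.6%. KYNU was thus the 1 gene of the 8 members and 44 listed genes past 1.5-fold with every hairpin.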

How the data were processed

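Per the submitters' processing notes the authors processed the arrays with RMA; its version, software and genome build: not given in the sources used here. The deposited intensity values are on a linear scale, 1 per probe set and array (medians of 226.0 to 232.3). RMA returns log2 values, so log2 of each deposited intensity was taken before any other step. Of 33297 probe sets, 19460 carry 1 gene symbol in the platform annotation, 1754 several and 12083 none. Only the first were used, giving 18417 genes. Of these probe sets, 19429 matched RefSeq by gene number. Where a gene had several probe sets (769 genes), the brightest on average stood for it; each of the 8 pathway genes had 1.

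Genes below the 25th percentile of mean log2 intensity were left out, leaving 13813. The 3 hairpins, given 1 genotype by the labels, were compared with the scrambled array in limma 3.58.1 (R 4.3.3; lmFit, eBayes with intensity trend, two-sided), leaving 2 residual degrees of freedom. The lone control is assumed to vary like the hairpins, and nothing says that the cultures were separate experiments. The p-values therefore cover no more than the spread among the 3 hairpin arrays. In that spread, differences between hairpins and technical variation cannot be told apart. A size of 1.5-fold with every hairpin was counted beside the limma test. Slide and scan date were not used here, and the number of arrays limits the precision. Tables and plots were made with pandas 2.3.3 and matplotlib 3.10.9.

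The pathway genes and the lists around them were chosen with earlier results of these data known. Named genes are the 8 members, ZFX, up to 3 genes per list with the largest mean difference, any listed gene past 1.5-fold with every hairpin, WARS1, AHR, NAMPT, NNMT, IRF1, the nearest measured neighbours, and the 5 genes nearest to KYNU. Other genes (GOT2, WARS2, TPH1, SLC3A2, ECHS1, ACAT1, JAK1, GPR35, IDO2, IL1B, C3) were named after their values were seen. So were the markers given by name, CD68, CSF1R, LYZ, PTPRC, ALB, SERPINA1 and TEK among them. Some listed genes are not reported here. Alternatives were other scalings, filters, probe set rules, an offset, other folds and leaving out each hairpin.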

Additional observations from a re-analysis of the deposited data

How the results depend on the processing

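KYNU was the 1 member at least 1.5-fold lower with every hairpin, and 0 members were 1.5-fold higher, under each alternative run, and limma called 0 genes in each. The mean log2 difference of KYNU ranged from -1.17 to -1.04 over 8 alternatives. That of TDO2 ranged from -0.96 to -0.27, the smallest without H4. Without H3 the mean turned positive for AADAT (0.004), and without H2 it turned negative for HAAO (-0.036) and QPRT (-0.021). Over all genes, the 43 lower with every hairpin became 26 on log2 of intensity plus 50, 28 with the filter at the 50th percentile and 262 at the lower fold tried. The 7 higher became 51 at that fold. Leaving out 1 hairpin gave 58 to 127 lower and 12 to 24 higher, since fewer arrays had to pass. No paired analysis was possible because the scrambled hairpin has 1 array. IDO1 and KMO are limited by their nearness to background.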

Other observations

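The nearest measured genes beside each pathway gene on the chromosome, by the RefSeq gene table, were read on the same arrays. KYNU lies between LRP1B, at 49.1 on the scrambled array and 48.1 to 49.0 with the hairpins, and ARHGAP15, at 93.2 and 64.2, 67.6 and 71.5 for H2, H3 and H4. Both are below the intensity filter, and ARHGAP15 was below the control with every hairpin (mean log2 difference -0.46 ± 0.078, SD, n = 3). The neighbours of TDO2, ASIC5 and CTSO, were below the filter too, and CTSO read 100.6 in the control and 112.7, 113.2 and 92.6 for H2, H3 and H4.

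AFMID lies between TK1, the thymidine kinase of dividing cells, and BIRC5, the mitotic protein survivin. TK1 read 1689 in the scrambled control, 1367 for H2, 2054 for H3 and 1543 for H4, so H2, where AFMID was highest, had the lowest TK1. BIRC5 stayed between 1585 and 1789 on the hairpin arrays against 1635.

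HSP90AA6P, an HSP90 pseudogene beside AADAT whose value is uncertain because of its near-identical relatives, stood at 1393 in the control and 2355, 1523 and 1596 for H2, H3 and H4, and like AADAT it was highest with H2. MFAP3L, on the other side of AADAT, was below the filter.

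OPN3, an opsin gene beside KMO, read 1836 in the control and 1223, 1413 and 1588 for H2, H3 and H4 (mean log2 difference -0.39 ± 0.19), and RGS7, on its other side, read 109.6 against 147.9, 129.5 and 108.4. ZFP36L2, an RNA-binding protein encoded beside HAAO, read 1950 against 1259, 1656 and 1710 (mean -0.35 ± 0.24), and OXER1, on the other side, 200.3 against 230.2, 199.2 and 214.9. Beside QPRT, SPN was below the filter and C16orf54 had values on both sides of the control, and ADAM2 and IDO2, beside IDO1, were below the filter. None of the neighbours was 1.5-fold away from the control with every hairpin.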
